A study of Mus musculus with 15 samples.

Results

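The comparison described here asks whether losing Klf3 and trapping Klf8 together changes transcript levels by more, or by less, than the sum of both changes alone. It was taken as the difference (doubly mutant minus Klf3-null) minus (Klf8-trap minus wild-type) on the log2 scale, here called the interaction, and was computed for the 23410 transcript clusters with a gene symbol out of 35556 on the array. A transcript cluster is the set of probes that stands for a transcript. A positive interaction means that the doubly mutant arrays lay above the level reached by adding both single differences, and a negative interaction that they lay below it. All 15 arrays of the study enter it: 4 wild-type, 4 Klf8gt/gt (Klf8-trap, gt for a gene-trap allele), 3 Klf3-/- (Klf3-null) and 4 Klf3-/- Klf8gt/gt (doubly mutant). All groups are FVB/NJ embryos at E13.5, and RNA came from TER119+ cells that were pulled from the fetal liver with magnetic beads. TER119 is a surface antigen of maturing red cells. A gene trap interrupts a transcript by an inserted splice acceptor and can leave a remnant of it, and the labels state neither the insertion site nor the segment removed from Klf3. Litters were matched only in so far as possible. The labels do not tie arrays to litters or state that each array is another embryo, so p-values here reflect differences between these preparations, whose technical share is unknown.

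KLF3 and KLF8 are zinc finger proteins of the Kruppel-like factor family. Both bind CACCC-type and GC-rich motifs and recruit the corepressor CtBP, so that each can hold a gene silent, and either can in principle stand in for the other at a shared site. Klf3 is driven in red cell precursors by the activator KLF1, and KLF3 in turn keeps Klf8 low, so that cells without KLF3 gain a related repressor. A gene held down by both would change little in either single mutant and more when both are missing.

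The promoters of 3 genes that were high only in combination, and of Klf8, are shown because CACCC is the core of the motif both factors read. Each window holds the 250 bases before an annotated start, from RefSeq on GRCm38.p6, written along the gene's own strand, with CACCC and its reverse complement GGGTG in capitals.
The Itgb7 window is chr15:102231936-102232185 on the minus strand, with 4 matches, which start 182, 35, 16 and 9 bases before the start site.
Itgb7: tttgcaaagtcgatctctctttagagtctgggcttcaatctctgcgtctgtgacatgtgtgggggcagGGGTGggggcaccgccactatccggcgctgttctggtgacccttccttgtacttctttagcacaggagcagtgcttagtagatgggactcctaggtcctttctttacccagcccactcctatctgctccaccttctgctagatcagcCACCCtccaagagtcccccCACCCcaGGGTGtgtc
The Parm1 window is chr5:91517450-91517699 on the plus strand, with 2 matches, both on the reverse strand.
Parm1: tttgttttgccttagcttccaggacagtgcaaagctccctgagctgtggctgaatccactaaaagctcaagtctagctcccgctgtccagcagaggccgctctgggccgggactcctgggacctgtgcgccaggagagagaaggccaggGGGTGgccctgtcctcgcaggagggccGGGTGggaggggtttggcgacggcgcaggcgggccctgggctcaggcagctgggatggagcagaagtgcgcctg
The Tcfl5 window is chr2:180642692-180642941 on the minus strand, with 2 matches, both on the reverse strand.
Tcfl5: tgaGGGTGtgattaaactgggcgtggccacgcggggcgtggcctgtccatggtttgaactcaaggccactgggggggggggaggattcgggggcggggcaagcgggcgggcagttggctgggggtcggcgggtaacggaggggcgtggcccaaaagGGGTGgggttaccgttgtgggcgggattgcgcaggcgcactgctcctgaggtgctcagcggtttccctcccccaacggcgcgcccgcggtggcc
Klf8 has 2 listed starts, both on the plus strand, at windows chrX:153237498-153237747 with 1 match and chrX:153359363-153359612 with 3 matches.
Klf8 window 1: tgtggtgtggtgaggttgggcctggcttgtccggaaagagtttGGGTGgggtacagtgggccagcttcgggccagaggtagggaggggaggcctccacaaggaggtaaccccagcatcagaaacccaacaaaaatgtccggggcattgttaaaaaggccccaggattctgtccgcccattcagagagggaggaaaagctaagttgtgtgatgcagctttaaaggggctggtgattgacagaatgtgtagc
Klf8 window 2: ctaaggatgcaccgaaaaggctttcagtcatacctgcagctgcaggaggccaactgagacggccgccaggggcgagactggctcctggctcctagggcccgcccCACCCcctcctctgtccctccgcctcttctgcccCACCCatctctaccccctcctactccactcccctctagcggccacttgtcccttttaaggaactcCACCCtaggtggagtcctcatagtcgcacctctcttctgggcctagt
CACCC on either strand was present in 52% of 32851 windows of this length, so its presence does not set these genes apart, and a match is a string of letters and not a measured site.

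Some facts about the arrays bear on every interaction. Klf3 signal was higher in the arrays labelled Klf3-null and doubly mutant (11.06 to 11.73) than in the other 8 (10.12 to 10.51), so this cluster does not check the Klf3 label, and the groups rest on the submitters' genotypes. Klf3 itself had an interaction of 0.06 (95% interval -0.32 to 0.44). The listed KLF1-activated red cell genes averaged 11.13 to 11.56 per array, against array medians of 6.28 to 6.41. Hepatocyte and macrophage marker genes averaged 10.66 to 12.45 and 7.24 to 9.30, so the purified cells also carried RNA of those types, and in bulk samples fewer cells of a type and less RNA per cell cannot be told apart. Klf8-trap replicate 1 and doubly mutant replicate 1 lay farthest from their group means (root mean square deviation 0.255 and 0.251, against 0.114 to 0.235 for the other 13), and the interactions below are given with 15 arrays and, for the genes and lists described at length, also without this pair. By Y-linked genes and Xist, wild-type arrays were all male (4 of 4), whereas 2 of 4 were male among Klf8-trap, 1 of 3 among Klf3-null and 2 of 4 among doubly mutant arrays.

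Across the transcriptome, departures from simple addition that passed the test were few with all arrays and mostly downward without the 2 deviating arrays. With 15 arrays, 1 of 23410 clusters (0.00427%) passed a limma adjusted p of 0.05, and it was Itgb7, with a positive interaction. None was negative (0%), although 3378 clusters (14.4%) had an unadjusted limma p below 0.05, of which 1321 were positive and 2057 negative. That share is larger than a threshold of 0.05 gives on average where no cluster departs. Few calls with 15 arrays therefore do not mean few departures. Without Klf8-trap replicate 1 and doubly mutant replicate 1, 746 clusters passed (3.19%), 114 positive (0.487%) and 632 negative (2.7%). Klf8-trap replicate 1 decided most of that rise. Leaving out that array alone gave 718 clusters, of which 580 were among the 746, whereas leaving out doubly mutant replicate 1 alone gave 2. With the replicate number as a block in the model, 13 clusters were called from 15 arrays, 3 of them positive. Here and below, that block treats same-numbered arrays as matched, which the labels do not state. Doubly mutant replicate 4 mattered too, with 386 clusters when it alone was left out, 183 of them shared with the 746. The median interaction of all clusters was 0.0012 with every array. Of all 95% intervals, 85.6% covered 0, and an interval clear of 0 stands for an unadjusted p below 0.05. The median 95% interval reached 0.35 to either side, so for a typical gene a smaller interaction did not reach even an unadjusted p of 0.05. The size needed after adjustment was larger, and named negative interactions of up to 2.13 in size did not pass.

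**Figure D1:**
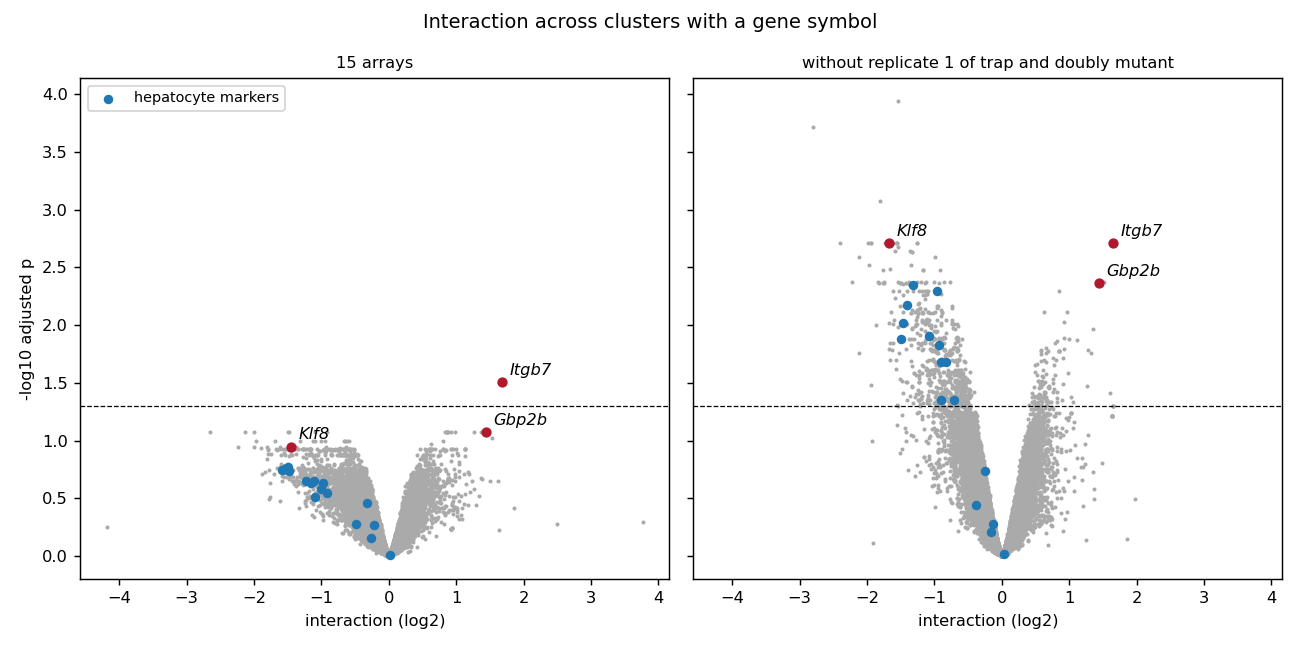
Interaction (x axis, log2) against -log10 of its limma adjusted p (y axis), 1 point per cluster with a gene symbol, for 15 arrays (left) and without replicate 1 of the Klf8-trap and doubly mutant groups (right), with hepatocyte marker genes in blue and the dashed line at an adjusted p of 0.05. On the left only Itgb7 (1.68) lies above the line, and on the right 746 clusters do, 632 of them on the negative side.

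A small group of genes was near its wild-type level in each single mutant and higher when both alleles were combined. Itgb7, which encodes the beta-7 integrin subunit of leukocytes, is the clearest of them. Its log2 signal was 6.49, 6.13, 5.91 and 6.01 in wild-type, 6.16, 5.91, 5.87 and 5.75 in Klf8-trap, 6.48, 6.77 and 6.60 in Klf3-null, and 8.41, 7.70, 8.14 and 8.10 in doubly mutant arrays. Every doubly mutant array lay above all 11 others, and Klf3-null arrays lay at the top of the wild-type range or just above it. The interaction of Itgb7 was 1.68 ± 0.22 (SE; 95% interval 1.22 to 2.15; limma adjusted p = 0.0311), and 1.65 without the 2 deviating arrays (adjusted p = 0.00196). Against Klf3-null arrays, the doubly mutant level of Itgb7 was higher by 1.47 ± 0.16, or 2.77-fold (adjusted p = 0.00346). No fold is given against wild-type or Klf8-trap arrays, whose mean Itgb7 signal lay below the array medians. The Itgb7 interaction kept its sign in all 30 alternative fits, from 1.33 to 1.81, but passed the threshold in 14 of them. In the 16 others its adjusted p ran from 0.0505 to 0.387. The call was lost when any of the 3 Klf3-null arrays, Klf8-trap replicate 2, 3 or 4, wild-type replicate 2 or 4, or doubly mutant replicate 3 was left out, with adjusted p up to 0.214. It was also lost with sex as a covariate (1.72, adjusted p = 0.0581). The other 10 lymphoid and mast cell markers measured beside it had no wild-type mean above the array medians.

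Parm1, Tcfl5 and Kif21b followed the same course at adjusted p just above the threshold. Parm1, which encodes a mucin-like membrane protein, read 7.14, 6.70, 6.30 and 6.99 in wild-type, 7.12, 6.72, 6.92 and 6.67 in Klf8-trap, 7.27, 6.94 and 7.12 in Klf3-null, and 8.84, 8.55, 8.56 and 8.25 in doubly mutant arrays. All 4 doubly mutant values of Parm1 lay above the other groups, which overlapped. Its interaction was 1.36 ± 0.25 (limma adjusted p = 0.0845), a ratio 2.57-fold above that expected by addition of log2 differences, and it passed with the replicate block (adjusted p = 0.0499) and without the 2 deviating arrays (adjusted p = 0.0108). Tcfl5, a basic helix-loop-helix transcription factor, read 5.43, 5.43, 5.63 and 5.70 in wild-type, 5.43, 5.44, 5.50 and 5.26 in Klf8-trap, 5.77, 5.80 and 5.88 in Klf3-null, and 7.38, 6.75, 7.18 and 6.40 in doubly mutant arrays. Tcfl5 was thus below the array medians in the first 3 groups and at or above them in the last. Its interaction was 1.26 ± 0.23 (adjusted p = 0.0845, and 0.0135 without the 2 arrays). Kif21b, a kinesin motor, lay at 6.84 to 7.44 in the 11 other arrays and at 8.20, 8.07, 7.87 and 8.14 in doubly mutant arrays. Its interaction was 0.87 ± 0.14 (adjusted p = 0.0845, and 0.0137 without the 2 arrays). Kif21b thus differs from Tcfl5 in being above the array medians in every group.

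**Figure D2:**
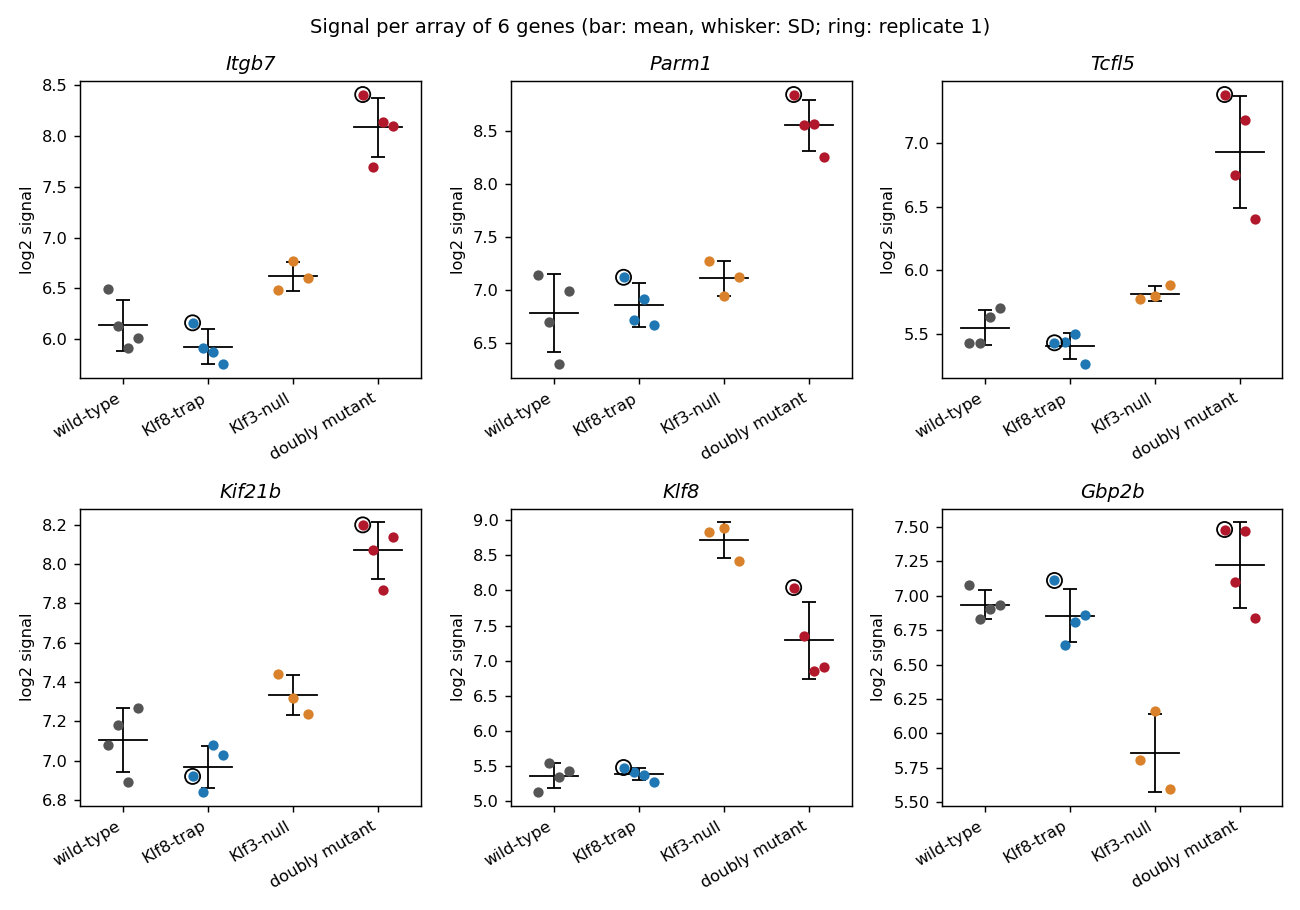
Log2 signal (y axis) of 6 genes in each array, by genotype (x axis). Points are arrays, bars are group means, whiskers are 1 SD, and rings mark replicate 1 of the Klf8-trap and doubly mutant groups. Itgb7, Parm1, Tcfl5 and Kif21b are high in the 4 doubly mutant arrays alone, Klf8 is highest in the 3 Klf3-null arrays, and Gbp2b is lowest in those 3.

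Sorting by size gives the extent of this class. A gene was said to need both losses where each single difference from wild type was below 0.5 and the doubly mutant difference at least 0.5, in the direction of the interaction. Without the 2 deviating arrays, 17 of the 746 clusters called fit that description, 10 upward and 7 downward, which is a description by point estimates and was not tested. A difference below 0.5 does not mean an unchanged level. In that fit the Klf3-null minus wild-type difference was 0.48 for Itgb7 (limma adjusted p = 0.131). It was 0.42 for Thsd7b, which passed the test (limma adjusted p = 0.0423). Besides Itgb7, Parm1, Tcfl5 and Kif21b, the upward genes were Thsd7b (0.62), a thrombospondin-repeat protein, Ackr3 (0.63), an atypical chemokine receptor, Eml6 (0.55), a microtubule-associated protein, Vegfa (1.05), the vascular growth factor, Eno2 (0.90), a glycolytic enolase, and Snord15b (1.32), a small nucleolar RNA, with the interaction in parentheses. The downward genes were the linker histone gene H1f2 (-1.09), the copper chaperone Ccs (-0.69), Ttpal (-1.08), the protein kinase inhibitor Pkig (-1.37), Serinc3 (-1.28), the ATP synthase subunit gene Atp5e (-1.19) and the translation factor gene Eif5a2 (-0.66). Apart from Itgb7, Parm1, Tcfl5, Kif21b and Thsd7b, these 17 were named after their values were seen, and their limma adjusted p ranged up to 0.0465.

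A second pattern, again by point estimates and not tested, is a difference of at least 0.5 in a single mutant that shared its sign with the doubly mutant difference and the interaction. Of the 746 clusters, 4 were of this kind, and Sult5a1, Prokr1 and the globin gene Hbb-bh1 are those with a single gene symbol. The single-mutant difference passed the test with 15 arrays for Sult5a1 (Klf3-null minus wild-type 0.58, limma adjusted p = 0.0165) and not for Prokr1 (-0.57, adjusted p = 0.621) or Hbb-bh1 (Klf8-trap minus wild-type 0.31, and 0.65 without the 2 deviating arrays). For Hbb-bh1 the Klf3-null minus wild-type difference ran the other way (-0.60), and it enters the interaction as well. Sult5a1, a sulfotransferase, read 5.66, 5.86, 5.61 and 5.58 in wild-type, 5.76, 5.76, 5.70 and 5.82 in Klf8-trap, 6.25, 6.31 and 6.22 in Klf3-null, and 7.11, 6.77, 7.28 and 6.95 in doubly mutant arrays. It formed 3 separate levels, with doubly mutant arrays above Klf3-null and both above the rest. The wild-type, Klf8-trap and Klf3-null means of Sult5a1 lay below the array medians. The interaction was 0.68 ± 0.15 (limma adjusted p = 0.118, and 0.0441 without the 2 deviating arrays). Prokr1, a prokineticin receptor, went downward. It read 9.26, 9.32, 9.44 and 8.87 in wild-type, 9.57, 8.88, 8.69 and 8.89 in Klf8-trap, 8.76, 8.78 and 8.41 in Klf3-null, and 8.22, 7.29, 7.06 and 7.16 in doubly mutant arrays. Doubly mutant replicate 1 was the highest of its group, yet all 4 doubly mutant arrays were below every other array. The Prokr1 interaction was -1.01 ± 0.34 (adjusted p = 0.223), and -1.08 without the 2 arrays (adjusted p = 0.0100).

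Among the genes raised most without KLF3, several had a positive interaction, at sizes that did not pass the test. The list of 14 such genes was chosen in earlier work on these same arrays, so its Klf3 effect is not evidence, and only its interaction is described. Of the 14, 10 had a positive and 4 a negative interaction, with a median of 0.14 against 0.0012 for all clusters, and 0.06 without the 2 deviating arrays. In limma none was called with 15 arrays, and without the pair Klf8 and Arl15 were, both negative, against 2.7% of all clusters. The interval lay above 0 for 4 genes, Lgals3, Spi1, Kdelr3 and Cyp4f39, below 0 for Klf8 and Arl15, and covered 0 for the other 8. Of all 23410 clusters, 1321 had an interval above 0 and 2057 below it. Lgals3, the galectin-3 gene, read 9.07, 9.01, 9.33 and 8.61 in wild-type, 8.84, 8.61, 8.53 and 8.72 in Klf8-trap, 11.27, 11.34 and 10.93 in Klf3-null, and 12.29, 12.06, 11.90 and 10.91 in doubly mutant arrays. Doubly mutant replicate 4 lay beside the lowest Klf3-null array, and the other 3 were above all Klf3-null arrays. The Lgals3 interaction was 0.94 ± 0.34 (limma adjusted p = 0.242), and 0.82 without the 2 deviating arrays. Spi1, which encodes the myeloid master regulator PU.1, had 0.80 ± 0.27 (adjusted p = 0.223), and 0.71 without them. Kdelr3, a receptor that returns proteins to the endoplasmic reticulum, had 0.67 ± 0.25 and 0.45, where its interval covered 0, and Cyp4f39, a cytochrome P450 gene, 1.39 ± 0.45 and 1.12. Kdelr3 was the member of these 4 in which doubly mutant arrays (8.57 to 9.54) and Klf3-null arrays (7.86 to 8.33) did not overlap. A Klf8-trap level below wild type raises the interaction as well. Without the 2 arrays, doubly mutant minus Klf3-null and Klf8-trap minus wild-type were 0.44 and -0.38 for Lgals3 and 0.33 and -0.39 for Spi1. For Cyp4f39 these differences were 1.065 and -0.06, and for Kdelr3 0.765 and 0.32.

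For Pqlc3 and C1qtnf12, among the genes with the largest Klf3 effect, both backgrounds gave similar estimates, and for Rragd the estimate depended on the 2 deviating arrays. Pqlc3, which encodes a PQ-loop membrane protein, read 7.86, 7.90, 8.01 and 7.39 in wild-type, 8.01, 7.79, 7.30 and 7.49 in Klf8-trap, 11.96, 11.93 and 11.62 in Klf3-null, and 12.27, 11.89, 11.86 and 11.20 in doubly mutant arrays. Its Klf3 difference was 4.04 with Klf8 intact and 4.16 with the trap, and the interaction was 0.11 (95% interval -0.53 to 0.75), and 0.07 without the 2 arrays (-0.51 to 0.65). C1qtnf12, which encodes the secreted protein adipolin, had 0.03 (-0.46 to 0.52), and -0.12 without them (-0.52 to 0.27). Rragd, a Rag GTPase gene of the mTORC1 pathway, had 0.04 (-1.04 to 1.13) with 15 arrays and -0.47 (-1.34 to 0.39) without the 2. None of these intervals shows that the trap adds nothing.

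Klf8 itself was the gene whose response to KLF3 loss was most reduced by the trap among the genes of that list. It read 5.13, 5.55, 5.34 and 5.43 in wild-type, 5.48, 5.42, 5.38 and 5.27 in Klf8-trap, 8.83, 8.89 and 8.42 in Klf3-null, and 8.04, 7.35, 6.85 and 6.91 in doubly mutant arrays. The first 2 groups lay below the array medians and overlapped, which leaves the trap without a check on the Klf3-intact background, while every doubly mutant array was below every Klf3-null array. The interaction was -1.45 ± 0.30 (95% interval -2.09 to -0.82; limma adjusted p = 0.113), and -1.67 without the 2 deviating arrays (adjusted p = 0.00196). Because the allele combined here is the trap in Klf8 itself, this value describes the trapped transcript and not a target of the factor. The doubly mutant minus Klf3-null difference was -1.43 ± 0.22, which is 2.69-fold lower (adjusted p = 0.0265), and a Klf8 signal above the array medians was still present in all 4 doubly mutant arrays. Arl15, a small GTPase gene, showed the same direction. It read 10.06, 10.18 and 9.69 in Klf3-null and 9.97, 9.49, 8.85 and 8.98 in doubly mutant arrays, against 7.45 to 7.85 in the other 8. Its interaction was -0.71 ± 0.29 (adjusted p = 0.296, and 0.0381 without the 2 arrays), and doubly mutant replicate 1 overlapped the Klf3-null range.

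**Figure D3:**
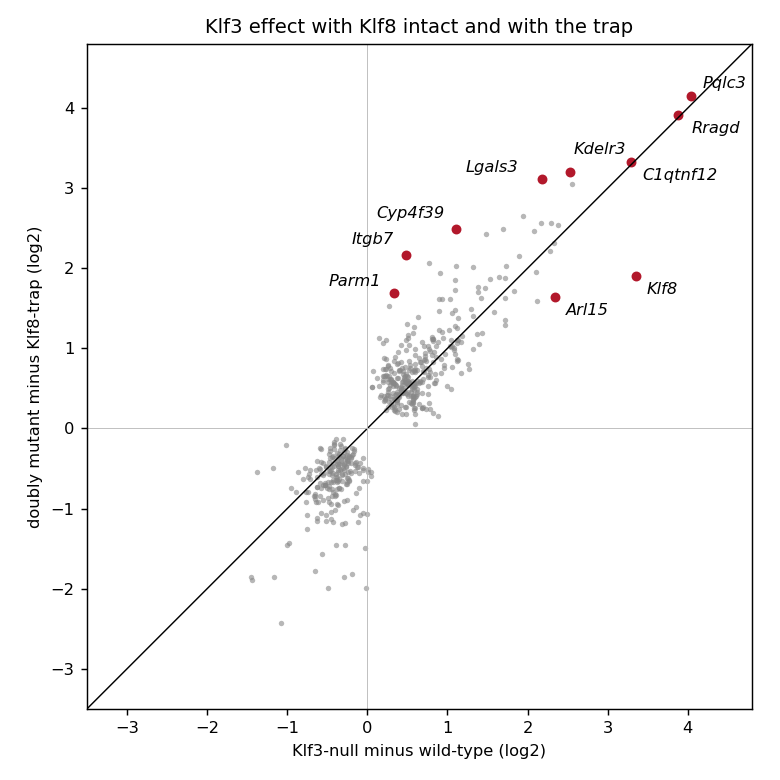
Klf3 effect with the trap (doubly mutant minus Klf8-trap, y axis, log2) against the effect with Klf8 intact (Klf3-null minus wild-type, x axis, log2) for the 557 clusters with an averaged Klf3 effect, from 15 arrays, with the line of equal effects. Pqlc3, Rragd and C1qtnf12 lie on or close to the line, Itgb7 and Parm1 above it, and Klf8 and Arl15 below it.

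Gbp2b moved the other way around: it was low without KLF3 alone and near wild type in combination. Gbp2b encodes a guanylate-binding protein, a GTPase induced by interferon. It read 7.08, 6.83, 6.90 and 6.93 in wild-type, 7.11, 6.64, 6.81 and 6.86 in Klf8-trap, 5.81, 6.16 and 5.60 in Klf3-null, and 7.48, 7.10, 7.47 and 6.84 in doubly mutant arrays. The 3 Klf3-null arrays stood below all 12 others, and the doubly mutant arrays overlapped both Klf3-intact groups. The Klf3-null difference was -1.08 ± 0.16 (limma adjusted p = 0.00319), doubly mutant arrays were higher than Klf3-null arrays by 1.37 ± 0.16 (adjusted p = 0.00485), and the interaction was 1.44 ± 0.22 (adjusted p = 0.0845, 0.0499 with the replicate block and 0.00435 without the 2 deviating arrays). The interferon response list had the opposite sign. Of 17 interferon genes, 14 had a negative interaction, with a median of -0.38, and -0.54 without the 2 arrays. Of the 17, 7 lay below the array medians in all groups. The list mean was 6.39 to 6.61 in wild-type, 6.46 to 6.94 in Klf8-trap, 6.47 to 7.18 in Klf3-null and 6.33 to 6.53 in doubly mutant arrays. In limma none of the 17 was called in either fit, and 3 and 8 intervals lay below 0, as did 2057 and 2887 of all 23410. Among 12 genes chosen on these arrays for falling without KLF3, 6 had a positive and 6 a negative interaction, with a median of -0.18. These 12 gave no limma call with 15 arrays (1 interval above 0 and 2 below). Without the pair Gbp2b and Prokr1 were called, against 3.19% of all clusters.

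Over all clusters with an averaged Klf3 effect, those lower without KLF3 had a larger median difference on the trap background than with Klf8 intact. Some of them differed little with Klf8 intact, so this is not a further fall of each member. For those that were higher, the sign of the median interaction was not the same in both fits. An averaged Klf3 effect, which is nearly independent of the interaction in this design (correlation of the estimates -0.077), was called for 557 clusters (2.38%), 339 higher and 218 lower. For the 339 higher clusters the median Klf3 effect was 0.57 with Klf8 intact and 0.66 with the trap, and for the 218 lower clusters -0.39 and -0.57. The median interaction was 0.10 for the higher set (quartiles -0.08 and 0.31), and 215 of 339 members (63.4%) had it in the direction of the Klf3 effect, against 57.8% of all clusters. Without the 2 deviating arrays that median was -0.01 and the count 165 of 339 (48.7%, against 57% of all clusters). For the lower set the median was -0.19 in both fits, with 171 and 170 of 218 members (78.4% and 78%) in the direction of the fall. The 95% interval covered 0 for 272 of 339 higher members (80.2%) and 161 of 218 lower members (73.9%), against 85.6% of all clusters. Itgb7 was the only member called with 15 arrays. Without the 2 arrays 41 members were called (7.36%, against 3.19% of all clusters). In the direction of the Klf3 effect were 10 of the 18 called among the higher and 22 of the 23 among the lower members. For the higher set that direction is positive, as were 114 of all 746 called clusters. For the lower set it is negative, as were 632 of the 746. Without regard to direction, 558 of the 746 (74.8%) had the sign of their own averaged Klf3 effect. The averaged effect of a member can come from the trap background alone. F13b is such a case among those 22, with a Klf3 difference of -0.01 with Klf8 intact, as is the fatty acid-binding protein gene Fabp1 (-0.03), chosen after its values were seen.

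For the trap, no averaged effect was called with 15 arrays (0%), although 2840 clusters had an unadjusted limma p below 0.05. Without both deviating arrays 2217 of 23410 clusters were called. The count was 108 without Klf8-trap replicate 1 alone, 84 without doubly mutant replicate 4 alone and 43 without doubly mutant replicate 1 alone. The count for Klf3 loss stayed between 394 and 718 when any 1 array was left out.

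On the negative side, no gene passed with 15 arrays, and the 12 named genes with the smallest p had interactions from -0.59 to -2.13 with limma adjusted p from 0.0845 to 0.101. Lgals2 (-0.92), a galectin gene, had the smallest p. Being chosen by a negative interaction, these genes tend to be high in Klf8-trap and low in doubly mutant arrays, so the group levels that follow are descriptions, and the Klf8-trap minus wild-type difference of none of the genes given with values in this paragraph passed the test with 15 arrays. Fabp2, a fatty acid-binding protein, read 7.38, 6.91, 7.42 and 7.55 in wild-type, 7.25, 8.72, 8.03 and 8.30 in Klf8-trap, 7.96, 8.28 and 8.22 in Klf3-null, and 6.76, 7.24, 6.75 and 6.39 in doubly mutant arrays. Klf8-trap replicate 1 stayed within the wild-type range and the other 3 were above it, as were all Klf3-null arrays, while 3 doubly mutant arrays were below it. The interaction of Fabp2 was -2.13 ± 0.37 (adjusted p = 0.0845), and -2.40 without the 2 deviating arrays (adjusted p = 0.00196). Apof, an apolipoprotein, read 8.21, 7.86, 8.39 and 8.28 in wild-type, 8.53, 9.59, 9.16 and 9.15 in Klf8-trap, 8.68, 8.59 and 8.93 in Klf3-null, and 6.88, 8.11, 7.54 and 8.10 in doubly mutant arrays. Apof was above wild type in every single mutant array, and doubly mutant replicates 2 and 4 lay within the wild-type range. Its interaction was -2.00 ± 0.37 (adjusted p = 0.0845), and -1.94 without the 2 arrays (adjusted p = 0.00196). F13b, the B subunit of coagulation factor XIII, had -1.97 ± 0.38 (adjusted p = 0.101, 0.0499 with the replicate block and 0.00196 without the 2 arrays), and differs from Fabp2 and Apof in that its Klf3-null difference was -0.01. The other 8 were Avpr1a (-1.70, and -1.75 without the 2 arrays), a vasopressin receptor, Iyd (-1.48 and -1.57), an iodotyrosine deiodinase, Pdzk1 (-1.12 and -1.26), a scaffold protein, Gpd1 (-1.01 and -1.10), a glycerol-3-phosphate dehydrogenase, Cyp2d10 (-1.10 and -1.14), a cytochrome P450 gene, Abcb1a (-1.10 and -1.14), a drug efflux pump, Rpf2 (-0.65 and -0.76), a ribosome assembly factor, and Dcun1d2 (-0.59 and -0.58). With the replicate block Lgals2, Iyd and Abcb1a also reached an adjusted p of 0.0499.

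Hepatocyte markers, a list that holds none of those 12 genes, had the most negative median of the lists. Their mean log2 signal was 11.49, 11.31, 11.59 and 11.74 in wild-type, 11.70, 12.45, 12.27 and 12.29 in Klf8-trap, 11.68, 11.65 and 11.92 in Klf3-null, and 10.66, 11.78, 11.80 and 11.78 in doubly mutant arrays. Klf8-trap replicates 2 to 4 were the highest of all arrays and doubly mutant replicate 1 the lowest, while doubly mutant replicates 2 to 4 lay just above the highest wild-type array. The median difference from wild type was 0.67 in Klf8-trap and -0.03 in doubly mutant arrays, and 0.83 and 0.31 without replicate 1 of both groups. Of 15 markers, 14 had a negative interaction, and the median was -1.01, and -0.90 without the 2 deviating arrays. In limma none was called with 15 arrays, with 10 intervals below 0, against 2057 of all 23410 clusters. Without the 2 arrays 10 were called, all negative, against 2.7% of all clusters. They were Apoa1, Apoa2, Apob, Apoh, Ttr, Fgb, Fga, Fgg, Ahsg and Cps1. These are the genes of apolipoproteins, transthyretin, the fibrinogen chains, fetuin and a urea cycle enzyme. Alb and Afp, the most abundant of the list at 13.99 each in wild-type arrays, had smaller values of -0.22 and -0.33. An alternative added once these values were known put the mean of this list into the limma model as a covariate. It called 4 genes with 15 arrays, all negative, namely Prokr1 (-1.88), Klf8 (-2.08), the elongation factor kinase gene Eef2k (-1.21) and Eif5a2 (-1.09), the last 2 outside the naming rule. It called 0 without the 2 deviating arrays, where 2279 still had an unadjusted p below 0.05. Itgb7 kept a positive interaction in both, at 1.33 (adjusted p = 0.0769) and 1.44 (adjusted p = 0.387). The covariate shares arrays and genes with the outcome, so this fit takes out any genotype difference that runs with the list, and the part of hepatocyte RNA in the other interactions was not tested beyond it.

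Sorted in the same way, most of the 746 clusters were damped, a count that follows in part from the choice of clusters by the interaction and was not tested. A cluster was called damped where the larger single difference from wild type was at least 0.5 and ran against the interaction. This held for 477 clusters, 441 negative and 36 positive, and in 444 of them the larger single difference was that of the Klf8-trap arrays. A further 248 met none of the 3 descriptions. The 8 named genes with the smallest p in the negative direction without the 2 arrays were Pop4 (-1.54), a subunit of ribonuclease P, Serpina7 (-1.81), the thyroxine-binding globulin gene, Cp (-1.61), the ceruloplasmin gene, F13b (-1.99), Ugt2b34 (-1.64), a glucuronosyltransferase, Hsd17b2 (-1.55), a steroid dehydrogenase, Iyd (-1.57), given above, and Saa3 (-1.95), a serum amyloid gene, with limma adjusted p up to 0.00196. Serpina7 also reached 0.0499 from 15 arrays with the replicate block. Pop4, which acts in all cell types, shows what leaving out an array does. It read 7.51, 7.56, 7.36 and 7.62 in wild-type, 7.63, 8.80, 8.73 and 8.74 in Klf8-trap, 7.87, 7.92 and 7.84 in Klf3-null, and 7.46, 7.64, 7.65 and 7.44 in doubly mutant arrays. Only Klf8-trap replicates 2 to 4 were high, and replicate 1 was at the wild-type level.

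Among markers of other cell types, those of megakaryocytes came next by the size of the median. All 8 megakaryocyte markers had a negative interaction, with a median of -0.91, and -1.07 without the 2 deviating arrays, where Pf4 and Gp5, genes of a platelet chemokine and a platelet glycoprotein, were called. Their mean signal was 9.50, 9.47, 9.23 and 9.47 in wild-type, 8.88, 10.03, 10.28 and 10.58 in Klf8-trap, 9.60, 9.66 and 9.54 in Klf3-null, and 8.95, 9.10, 8.95 and 10.23 in doubly mutant arrays. Klf8-trap replicate 1 was low and doubly mutant replicate 4 high against the rest of their groups. Macrophage markers had a median of -0.30 with 15 of 16 negative, and -0.08 with 10 of 16 negative without the 2 arrays, where Vcam1, an adhesion molecule of the erythroblast island, was called (-0.96). Of 15 p53 target genes, 12 had a negative interaction, with a median of -0.29, and -0.35 without the 2 arrays, and 6 had intervals below 0, among them Ccng1 (-0.67), a cyclin gene, and Perp (-1.17), a membrane protein gene. Eda2r, whose signal lay under the lower quartile of doubly mutant arrays, was called negative without the 2 arrays and is given without a size. Stromal markers went upward, with a median of 0.52, and 0.46 without the 2 arrays, and 9 of 11 positive in both fits. Their mean was 8.41 to 8.55 in wild-type, 8.46 to 8.59 in Klf8-trap, 8.12 to 8.38 in Klf3-null and 8.40 to 8.85 in doubly mutant arrays, and 6 of the 11 intervals lay above 0, among them the collagen genes Col1a1 (1.01), Col1a2 (0.55), Col3a1 (0.52) and Col5a1 (0.56). In limma no stromal, p53, megakaryocyte or macrophage gene was called with 15 arrays. Of all 23410 clusters, 2057 had an interval below 0 and 1321 above it with 15 arrays, and 2.7% were called negative without the 2 arrays. The medians of the megakaryocyte, p53, interferon and stromal lists kept their sign in all 30 alternatives, and the macrophage median changed sign in 4.

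**Figure D4:**
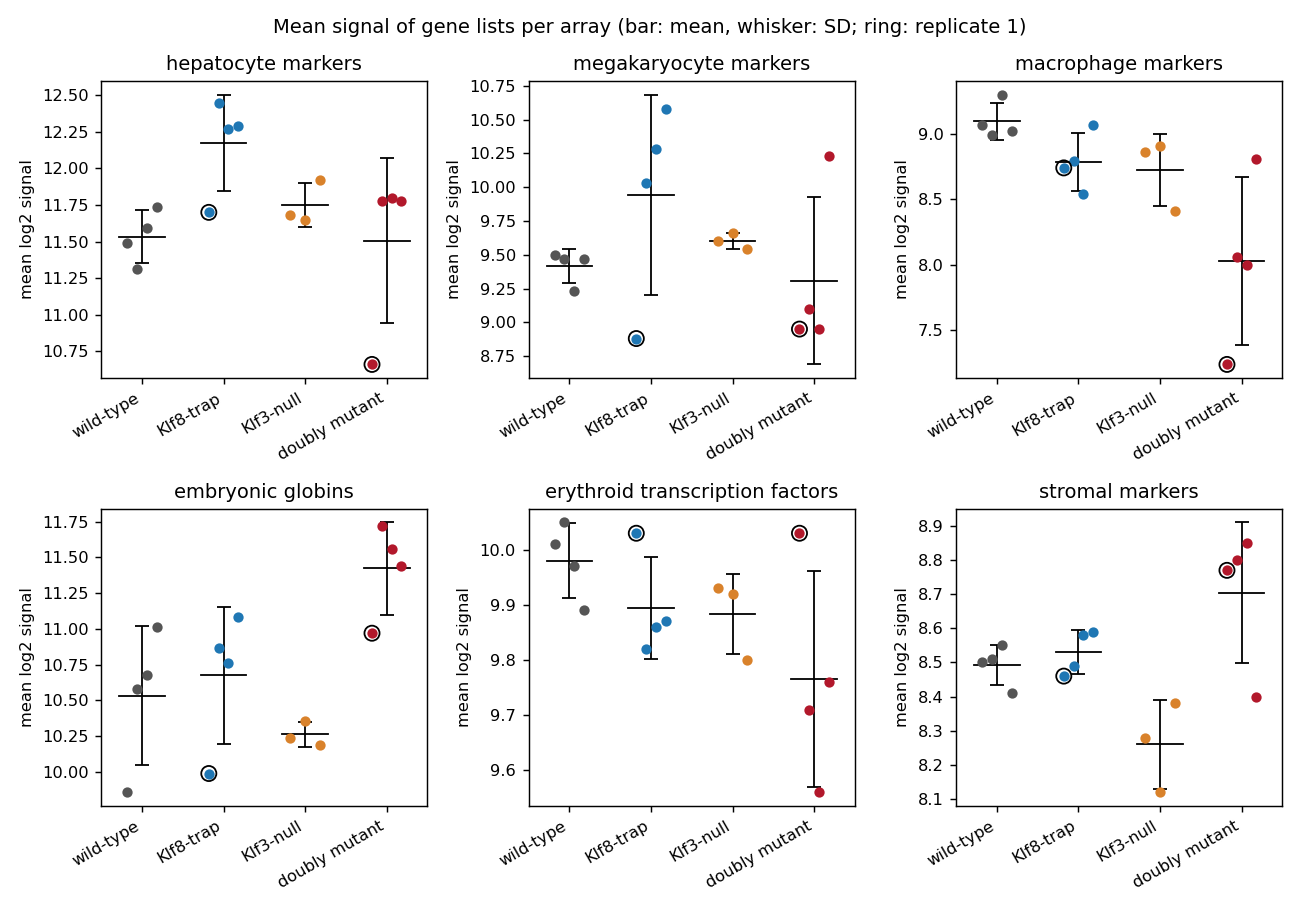
Mean log2 signal (y axis) of 6 gene lists in each array, by genotype (x axis). Points are arrays, bars are group means, whiskers are 1 SD, and rings mark replicate 1 of the Klf8-trap and doubly mutant groups. Hepatocyte means are highest in Klf8-trap replicates 2 to 4 (12.27 to 12.45) and lowest in doubly mutant replicate 1 (10.66), while erythroid transcription factors stay between 9.56 and 10.05.

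Embryonic globins were highest in doubly mutant arrays. The mean of the 4 genes was 9.86, 10.58, 10.68 and 11.01 in wild-type, 9.99, 10.87, 10.76 and 11.08 in Klf8-trap, 10.24, 10.36 and 10.19 in Klf3-null, and 10.97, 11.72, 11.56 and 11.44 in doubly mutant arrays. Doubly mutant replicates 2 to 4 lay above every other array, and replicate 1, at 10.97, was below the highest wild-type and Klf8-trap values. All 4 interactions were positive, with a median of 0.95, and 0.87 without the 2 deviating arrays (0.76 to 1.68 over all 30 alternatives). Hbb-bh1, an embryonic beta-like globin gene, read 9.64, 10.61, 10.54 and 11.25 in wild-type, 9.78, 11.06, 10.99 and 11.43 in Klf8-trap, 9.88, 10.07 and 9.79 in Klf3-null, and 10.85, 12.15, 12.37 and 11.99 in doubly mutant arrays. Replicate 1 was the lowest array in the wild-type, Klf8-trap and doubly mutant groups alike. The Hbb-bh1 interaction was 1.62 ± 0.56 (limma adjusted p = 0.223), and 1.60 ± 0.38 without the 2 arrays (adjusted p = 0.0390). Hba-x, the embryonic alpha-like globin gene, had 1.34 ± 0.57, Hbb-y 0.54 and Hbb-bh2 0.57, and none of these was called in either fit.

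Genes of the red cell programme had small interactions, whose list medians took either sign across the alternatives. Among 16 KLF1-activated genes the median interaction was 0.05, among 20 erythroid transcription factors -0.05, among 20 genes of haem synthesis and iron 0.02, and among 19 membrane and skeleton genes 0.06, with none called by limma in either fit. Without the 2 deviating arrays these medians were 0.02, -0.09, 0.02 and 0.05. Every interval of the KLF1-activated and haem lists covered 0, as did 19 of 20 transcription factor and 18 of 19 membrane gene intervals. The exceptions were Ldb1 and the tropomyosin gene Tpm1 (0.62 ± 0.15). Slc4a1, the anion exchanger of the red cell membrane, had 0.06 ± 0.12, and Alas2, which starts erythroid haem synthesis, -0.01 ± 0.18. Gata1 had -0.26 ± 0.22, Klf1 -0.18 ± 0.16, and Ldb1, a bridging protein of the GATA1 complex, 0.42 ± 0.10 (limma adjusted p = 0.133). Late maturation genes had a median of -0.16 with 13 of 18 negative, and cell cycle genes -0.08 with 21 of 29 negative. The 17 genes of CtBP and its KLF3 partners ranged from -0.27 to 0.19, and all of their intervals covered 0. Of 20 Kruppel-like and Sp factors, 18 had intervals that covered 0, Klf8 was below 0 and Klf14 (0.41 ± 0.19) above it. Median interactions were also near 0 for 13 globin switching repressors (-0.03), 16 integrated stress response genes (0.07) and 10 endothelial markers (-0.07), and were -0.24 for 11 progenitor markers and 0.23 for 14 granulocyte and monocyte markers. With quantile normalization the medians of the erythroid transcription factors, the cell cycle genes, the globin switching repressors and the endothelial markers took the other sign.

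**Figure D5:**
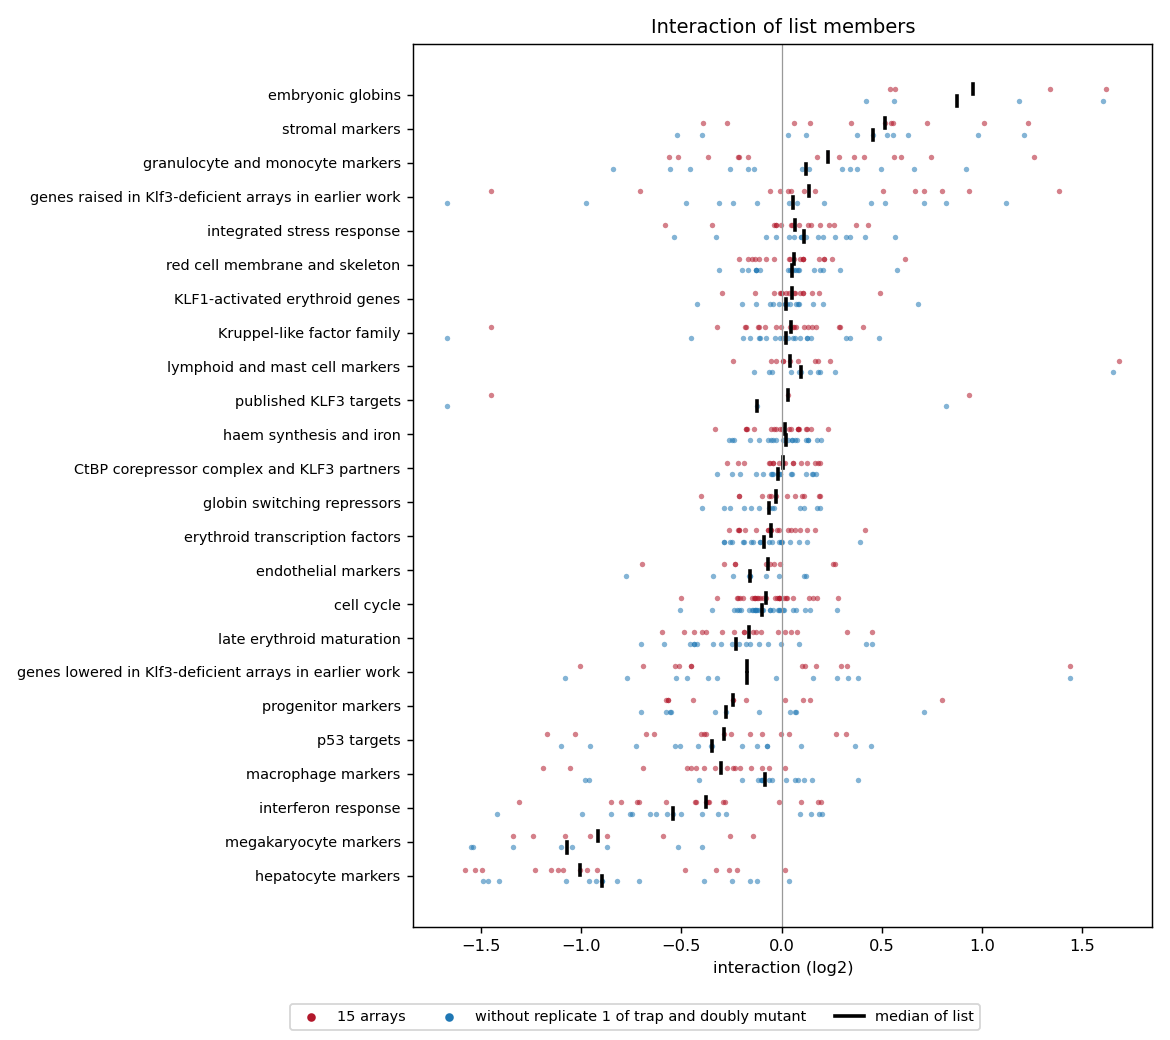
Interaction (x axis, log2) of each member of the gene lists other than the sex markers (y axis), with all 15 arrays in red and without replicate 1 of the Klf8-trap and doubly mutant groups in blue. Short black lines are list medians, which for these lists run from -1.01 (hepatocyte markers) to 0.95 (embryonic globins) with 15 arrays.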

How the data were processed

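Each of the 15 samples was hybridised to an Affymetrix mouse array. The authors deposited log2 signals for every transcript cluster, and per the submitters' processing notes RMA and Partek were used, with no version given. The values ranged from 2.09 to 14.89. A symbol came from the platform annotation, which gave 1 symbol for 21789 clusters, several for 1621 and none for 12146. Clusters with several symbols were tested and not named. Detection calls were not used here. A fold is therefore withheld where a group's mean was below the array medians, and a size where it was under the lower quartile of the arrays.

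Genotype means were estimated with limma 3.58.1 in R 4.3.3 (lmFit and eBayes, prior degrees of freedom 4.27, residual 11). P-values are two-sided, adjusted by Benjamini-Hochberg over 23410 clusters at a threshold of 0.05, and limma is the source of each adjusted p given. Intervals are 95% intervals of that fit, and errors after ± are its SE. The method was tested on simulated data. The number of arrays limits precision, with a median SE of the interaction of 0.165.

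Named genes were Klf3 and Klf8, the members of 2 lists from earlier work, embryonic globins and list members that passed the threshold. To these were added, for each sign of the interaction, the 12 genes of smallest p with 15 arrays and the 8 without the 2 deviating arrays, skipping predicted, receptor-cluster and small RNA genes and clusters below the array medians in all groups. Other list members are given as examples, and further genes were named after their values were seen. The members, the 25 lists, the arrays left out and the limit of 0.5 behind the patterns were chosen with earlier results of these data known. Alternatives left out arrays, added the replicate number, sex, macrophage or hepatocyte signal, kept male embryos, or changed scaling, filter or variance model. Those with hepatocyte signal, and sex without the 2 arrays, were added after seeing the data. Array deviations from group means correlated above 0.1 for all 4 same-numbered pairs of Klf8-trap and doubly mutant arrays (0.114 to 0.534) but not for all pairs of any other groups. Only same-numbered arrays were compared, so a pairing by number is not shown by this, and the labels state none. RefSeq promoter windows matched 63 of the 78 named genes.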

Additional observations from a re-analysis of the deposited data

Results flagged for a closer look

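The interaction of Itgb7, 1.684 on the log2 scale, is the difference between the trap effect with and without KLF3 that passed its own test with 15 arrays.

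Of 306 groups of 4 arrays examined for a value far from the other 3, 21 had one. Among these 21, 8 were Klf8-trap replicate 1 and 5 were doubly mutant replicate 1. Chance alone gives about 1 in 20 for independent groups, but the genes and lists examined share arrays and some members. Several of the genes were named because they passed once both of those arrays were left out. The counts for both arrays therefore cannot be set against chance. Klf8-trap replicate 1 was lower than its group in Pop4 (7.63 against 8.73 to 8.80), Fgb (11.92 against 12.62 to 12.74), Hba-x (10.74 against 12.17 to 12.38) and the mean of endothelial markers (7.65 against 8.57 to 8.73). The same array was higher in Asb2 (7.59 against 7.20 to 7.26), Aqp2 (6.74 against 6.38 to 6.39), the mean of KLF1-activated genes (11.51 against 11.22 to 11.27) and the mean of late maturation genes (10.84 against 10.55 to 10.59). Doubly mutant replicate 1 was lower in Ugt2b34 (9.11 against 10.46 to 10.68), Fgb (10.57 against 12.01 to 12.15), Fga (8.49 against 9.97 to 10.03), Fgg (9.60 against 10.94 to 11.13) and the mean of hepatocyte markers (10.66 against 11.78 to 11.80).

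Doubly mutant replicate 4 was higher in Gp5 (9.18 against 7.61 to 7.85) and the mean of megakaryocyte markers (10.23 against 8.95 to 9.10), and lower in Thsd7b (6.34 against 6.61 to 6.64). Wild-type replicate 3 was higher in Tmem26 (7.64 against 7.16 to 7.17) and lower in the means of interferon genes (6.39 against 6.58 to 6.61) and megakaryocyte markers (9.23 against 9.47 to 9.50). Wild-type replicate 2 was lower in Fga (9.22 against 9.78 to 9.85) and higher in Csf3r (5.82 against 5.75 to 5.76).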

How the results depend on the processing

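The count of interactions, 1 with 15 arrays, was 746 without Klf8-trap replicate 1 and doubly mutant replicate 1, 1183 with array weights, 411 in male embryos, 13 with the replicate block, 4 with hepatocyte signal as a covariate, and 509 with sex as a covariate without the 2 arrays. It was 0 with sex as a covariate, with macrophage signal as a covariate, over all clusters of the table, in an ordinary linear model, and with hepatocyte signal as a covariate without the 2 arrays, while 2279 to 3153 clusters then had an unadjusted p below 0.05. Leaving out 1 array gave 0 to 718, with 718 for Klf8-trap replicate 1, 386 for doubly mutant replicate 4 and 32 for doubly mutant replicate 2. The averaged Klf3 count of 557 became 333 in male embryos, 340 with macrophage signal, 868 with array weights and 1367 with hepatocyte signal. The averaged trap count of 0 became 2217 without the 2 arrays, 1555 with sex as a covariate without them, 925 with array weights, 3 with hepatocyte signal, and 0 to 108 with 1 array left out. The cause of these changes was not tested. Of the values of 78 named genes under 30 alternatives, 1987 kept their sign and side of the threshold, 257 newly passed it, 16 lost it (all Itgb7) and 78 changed sign below the threshold. Some genes were named for a small p without the 2 arrays, so part of the 257 follows from that choice. Of the list medians, 670 moved by less than the spread between replicates and 80 by more. For the other group pairs, the correlations of same-numbered arrays ran from -0.276 to 0.299.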

Other observations

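Families named by their gene symbols, chosen after their values were seen and overlapping the hepatocyte list in part, are given here as values. Those of liver products had mostly negative interactions, and the Cyp2 and small nucleolar RNA genes did not. Without the 2 deviating arrays, 2.7% of all clusters were called negative and 0.487% positive. Of 14 complement and coagulation genes, 13 were negative, with a median of -1.02, and 7 were called negative in limma without those arrays. The 7 Ugt2b glucuronosyltransferase genes had a median of -0.92 with 3 called without those arrays, the 14 Serpina protease inhibitor genes -0.48 with 3 called, and the 12 apolipoprotein genes -0.71 with 6 called. The 44 Cyp2 cytochrome genes had a median of -0.01, with 23 negative, and 5 were called negative without the 2 arrays. Small nucleolar RNA genes had a median of 0.16, and 0.07 without the 2 arrays, with 34 of 56 and 30 of 56 positive and 3 called positive. None of these families had a member called with 15 arrays.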
